A study of Mus musculus with 2 samples.

Results

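Kinesin genes encode motor proteins that walk along, or take apart, microtubules, and the deposited table was searched for every gene symbol that begins with Kif or Kifc and a digit. The search found 42 genes among the 22095 listed, and the values behind the comparison played no part in it. C2C12, a line of mouse myoblasts that leaves the cell cycle and fuses into myotubes when serum is withdrawn, was given either si*Malat1*, an siRNA against the nuclear long non-coding RNA *Malat1*, or the negative control oligo siNC. Both cultures were moved to differentiation medium (DM, with little horse serum in place of fetal serum) and were in it for 2 days by the study's description, a time the sample labels do not give. One library of polyadenylated RNA was sequenced per oligo, so the variation from culture to culture is unknown and the differences below carry neither a p-value nor an error. Levels are given in FPKM (fragment counts scaled to gene length and library depth), a scale on which genes of different length can be compared. *Malat1* itself stood at 34.2 FPKM in si*Malat1* cells, against 41.8 FPKM in siNC cells, a log2 ratio of -0.29. The paper reports the knockdown in the sequenced samples by quantitative PCR. It also describes the end of the *Malat1* transcript as formed without the usual cleavage and polyadenylation. In polyadenylated RNA the ratio above thus need not measure the extent of the knockdown.

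A part of the family works in dividing cells only, or nearly so. Mitotic kinesins build the bipolar spindle, move chromosomes along it, set the length of its microtubules and organize the midzone where the cell is cleaved, and most of their genes are transcribed late in the cell cycle and silenced when cells leave it. Transport kinesins carry vesicles, mitochondria and other cargo in dividing and resting cells alike, and in muscle fibers the kinesin-1 motor also spaces the nuclei. Roles were taken from textbook knowledge, but with earlier results of these data known. By role, 14 of the 42 genes were placed among mitotic kinesins, 17 among transport kinesins and 10 among other roles, such as cilia. The remaining gene, *Kif4b*, which RefSeq lists today as the pseudogene *Kif4-ps*, was on no list (0.0297 FPKM in si*Malat1* cells and 0.00682 FPKM in siNC cells).

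Mitotic kinesins were lower in si*Malat1* cells without exception among the 12 that reached a mean of 1 FPKM over both libraries, while transport kinesins lay close to a ratio of 1. Of the 13 transport kinesins 11 were on the lower side too, by small amounts, and of all 17 that were not mitotic 14 were, where 57.4% of all genes were lower, and 61.9% of the genes between 1 and 25 FPKM. Log2 ratios were taken of si*Malat1* over siNC after adding 0.1 FPKM to each value, which understates the change of low genes. The median log2 ratio was -0.61 for the 12 mitotic kinesins, -0.05 for 13 transport kinesins and -0.16 for 4 kinesins of other roles, beside -0.04 for the 11099 genes that reached this mean. A ratio of 1.5 or more in the lower direction was met by 6 of the 12 mitotic kinesins and by 0 of the 17 other kinesins, where 1.75% of all genes met it. Among genes between 1 and 25 FPKM, the range that holds the mitotic kinesins, the share was 2.49%. No kinesin was higher by 1.5 times, as 2.29% of all genes were. At a milder threshold, a log2 ratio beyond 0.32 in size, all 12 mitotic kinesins were lower (8.43% of all genes) and no kinesin was higher (6.50% of all genes), and of the transport kinesins only *Kif5c* was lower.

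**Figure D1:**
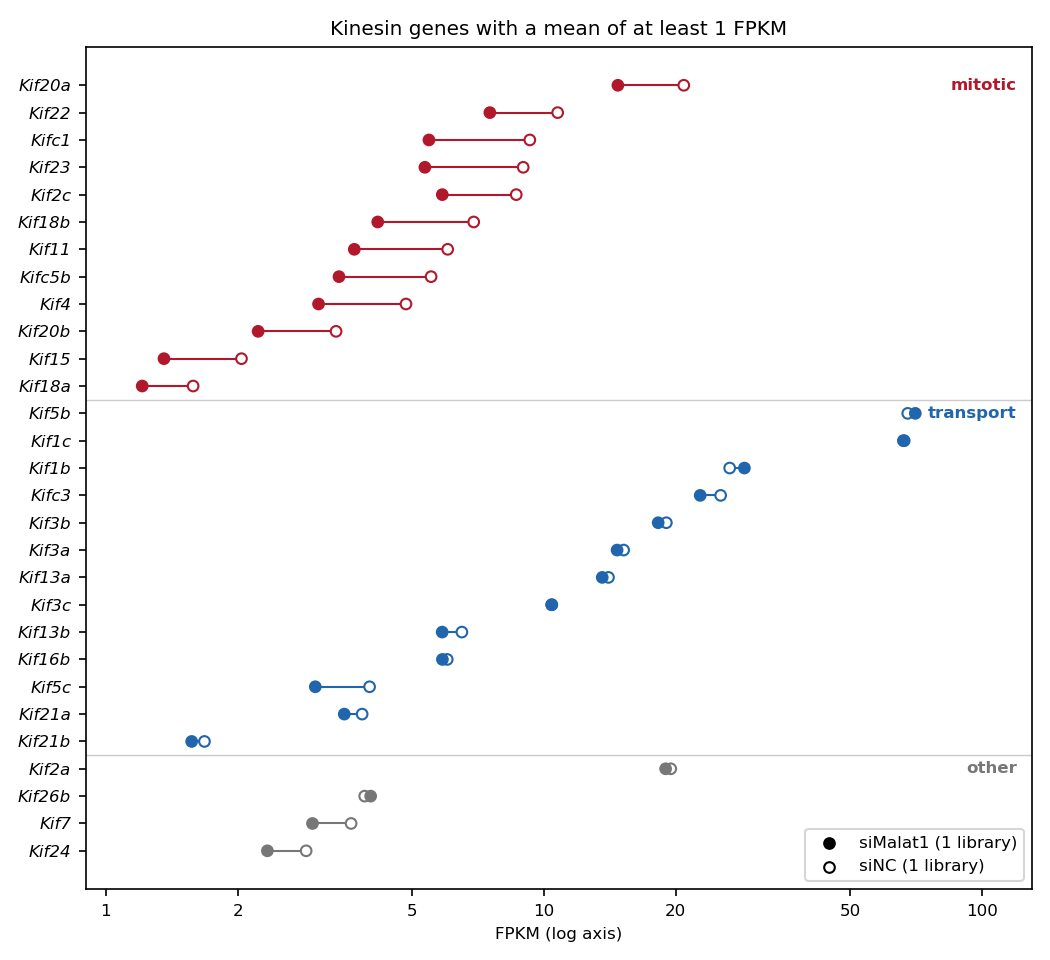
FPKM (log axis) of the 29 kinesins that averaged 1 FPKM or more, grouped by role and ordered by the siNC value, with filled circles for the si*Malat1* library and open circles for the siNC library. All 12 mitotic kinesins have the filled circle to the left, from *Kif20a* (14.7 and 20.9 FPKM) to *Kif18a* (1.21 and 1.58 FPKM), while most transport kinesins have circles that nearly coincide.

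Most of the mitotic kinesins share a sequence feature that the choice of members did not use. Promoters of genes expressed in G2 and mitosis often carry a cell cycle genes homology region (CHR), with the letters TTTGAA, close to the start of transcription, and CCAAT boxes upstream of it. In general the CHR is bound by MuvB complexes, which repress such genes in resting cells and activate them in dividing cells, and the CCAAT box by NF-Y. RefSeq promoter windows of GRCm38.p6, from 250 bases before the annotated start to 50 bases after it, were found for 33 of the 42 kinesins, among them 13 mitotic kinesins (all but *Kif20a*). TTTGAA, searched on both strands and thus also as TTCAAA, was present in 11 of these 13 windows, in 1 of 11 windows of transport kinesins and in 2 of 9 of the others. *Kifc1* and *Kifc5b* are close copies with nearly the same bases around the match. Both are counted here and in the promoter counts below, so these counts are not of independent genes. For scale, 13.9% of the 7769 genes of at least 1 FPKM with a window had a match, and 17.9% of all 32851 windows. The stretches around the match nearest the start site are shown for the 11 mitotic kinesins that had a match. They run 5' to 3' along the gene, with TTTGAA or its reverse complement in capitals and positions in GRCm38.
*Kifc1* (chr17:33890615-33890644, minus strand): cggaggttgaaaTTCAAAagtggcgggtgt
*Kifc5b* (chr17:26917108-26917137, plus strand): cggaggttgaaaTTCAAAagtgactggtgt
*Kif11* (chr19:37376351-37376380, plus strand): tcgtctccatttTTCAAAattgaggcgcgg
*Kif15* (chr9:122951050-122951079, plus strand): tggggcgccaaaTTCAAAtctgcggccatc
*Kif23* (chr9:61946780-61946809, minus strand): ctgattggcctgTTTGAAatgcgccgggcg
*Kif20b* (chr19:34922353-34922382, plus strand): gagccgccattgTTTGAATTTGAAaaccgg
*Kif18b* (chr11:102925104-102925133, minus strand): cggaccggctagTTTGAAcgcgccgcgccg
*Kif4* (chrX:100626072-100626101, plus strand): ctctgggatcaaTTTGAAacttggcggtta
*Kif22* (chr7:127042420-127042449, minus strand): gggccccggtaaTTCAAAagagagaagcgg
*Kif2c* (chr4:117178858-117178887, minus strand): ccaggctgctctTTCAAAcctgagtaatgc
*Kif14* (chr1:136467608-136467637, plus strand): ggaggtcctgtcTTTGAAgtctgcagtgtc

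In 9 of the 13 mitotic windows the match began within 30 bases of the annotated start, a distance chosen after the positions had been seen, against 0 of 11 transport windows, 1 of 9 others and 2.45% of the genes of at least 1 FPKM. Counted from the start, the match began at -19 in *Kif11* and *Kif15*, at -17 in *Kif22*, at 2 in *Kifc1*, 3 in *Kif23*, 4 in *Kif18b*, 8 in *Kif20b*, 20 in *Kif4* and 30 in *Kifc5b*. *Kif20b* had a pair of matches in direct succession. In *Kif2c* and *Kif14* the match lay farther upstream, at -103 and -228. The mitotic windows of *Kif18a* and *Kif2b* had no TTTGAA. A match of 6 letters is not a binding site by itself, and no binding was measured here.

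CCAAT boxes, searched on both strands and thus also as ATTGG, were in 9 of 13 mitotic windows, 3 of 11 transport windows and 4 of 9 others, where 43.2% of genes of at least 1 FPKM had one. Both motifs in a single window were found for 8 of 13 mitotic kinesins, 0 of 11 transport kinesins and 2 of 9 others, beside 5.74% of genes of at least 1 FPKM. To show their arrangement, the stretch from 100 bases before the start to 30 bases after it is given for 3 mitotic kinesins with both motifs and for the transport kinesins *Kif3b* and *Kif1c*, with both motifs, on either strand, in capitals.
*Kifc1* (chr17:33890604-33890733, minus strand): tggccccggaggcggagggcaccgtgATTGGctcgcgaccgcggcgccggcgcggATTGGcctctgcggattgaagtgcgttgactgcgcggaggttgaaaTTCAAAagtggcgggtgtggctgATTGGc
*Kif23* (chr9:61946770-61946899, minus strand): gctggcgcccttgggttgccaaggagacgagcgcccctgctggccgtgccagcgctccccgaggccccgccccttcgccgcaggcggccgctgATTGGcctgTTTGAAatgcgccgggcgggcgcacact
*Kif11* (chr19:37376282-37376411, plus strand): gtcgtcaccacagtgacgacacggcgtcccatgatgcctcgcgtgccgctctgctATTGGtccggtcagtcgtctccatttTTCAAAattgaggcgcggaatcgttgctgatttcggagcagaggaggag
*Kif3b* (chr2:153291316-153291445, plus strand): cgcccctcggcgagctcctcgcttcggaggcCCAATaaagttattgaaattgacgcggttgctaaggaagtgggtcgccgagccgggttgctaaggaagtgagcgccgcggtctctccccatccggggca
*Kif1c* (chr11:70700448-70700577, plus strand): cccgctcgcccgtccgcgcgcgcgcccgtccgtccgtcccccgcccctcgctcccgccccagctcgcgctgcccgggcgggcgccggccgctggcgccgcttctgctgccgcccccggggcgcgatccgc

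**Figure D2:**
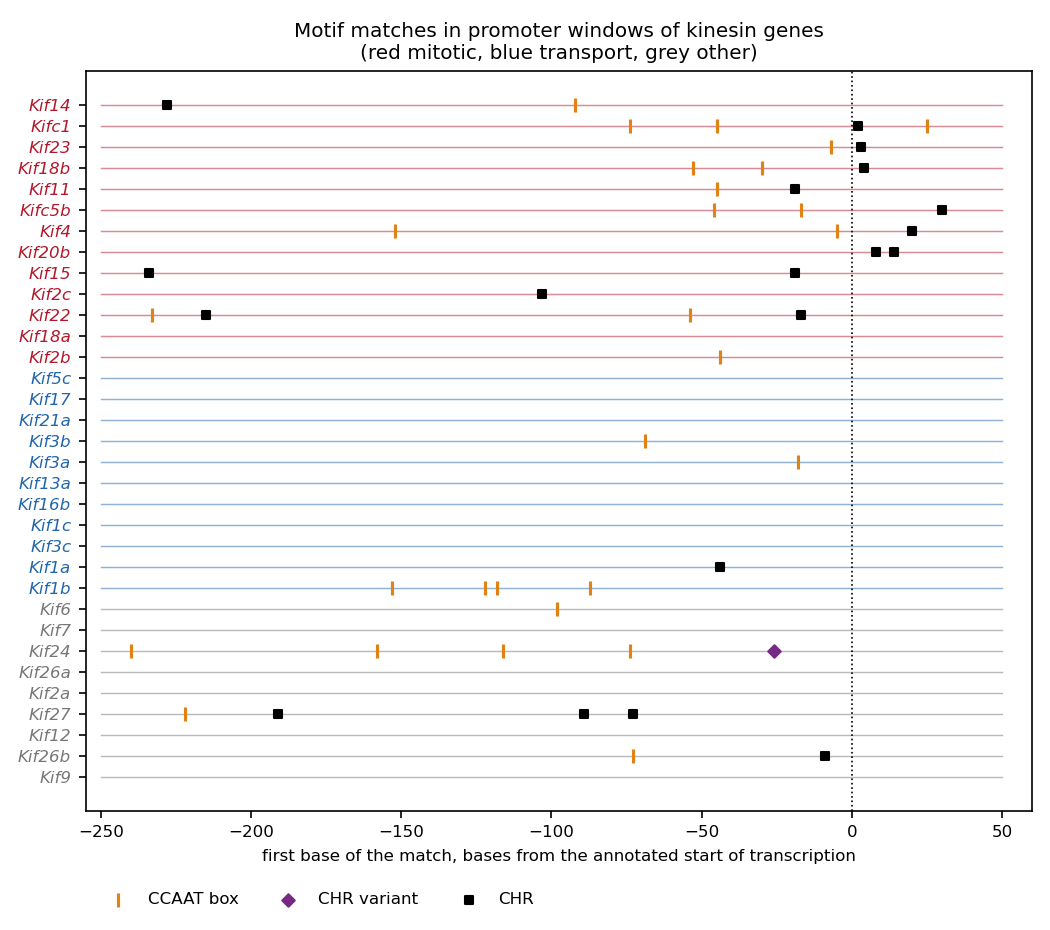
Positions of CHR (TTTGAA), the CHR variant TTCGAA and CCAAT boxes in the promoter windows of 33 kinesin genes, given as the distance in bases of the first base of each match from the annotated start of transcription (dotted line). CHR matches cluster around the start in 9 mitotic kinesins, and the 1 transport kinesin with a match is *Kif1a*.

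Kinesins that assemble the spindle had the lowest median among the mitotic groups, -0.69 over 4 genes. *Kifc1*, a motor that walks to the minus end and gathers microtubules at the spindle poles, stood at 5.46 FPKM in si*Malat1* cells, against 9.28 FPKM in siNC cells. Its log2 ratio was -0.75, and its level in si*Malat1* cells was 41.2% lower. *Kif11*, the kinesin-5 that slides antiparallel microtubules to push the poles apart, stood at 3.69 FPKM in si*Malat1* cells and 6.03 FPKM in siNC cells (log2 ratio -0.69). Both genes were thus lower by more than 1.5 times. *Kif15*, which helps *Kif11* to hold the spindle bipolar, had 1.36 FPKM in si*Malat1* cells, against 2.04 FPKM in siNC cells, with a log2 ratio of -0.55. Without the added 0.1 FPKM its plain ratio was 0.665, past 1.5 times, so that its place on the other side of that line rests on the pseudocount. *Kifc5b*, a close copy of *Kifc1*, had 3.40 FPKM in si*Malat1* cells, against 5.53 FPKM in siNC cells (log2 ratio -0.68). In mm9 *Kifc1* lies on chromosome 17 from 34012611 to 34027578, *Kifc5b* on chromosome 17 from 27054036 to 27069524 and *Kif11* on chromosome 19 from 37450893 to 37496349.

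The values of *Kifc1* and *Kifc5b* are not independent of each other. In the GENCODE M21 annotation of GRCm38 their longest coding transcripts were identical at 97.9% of 2326 aligned bases, and 39.7% of the 50-base words of *Kifc1* transcripts, the length of a read, occurred in transcripts of another gene. The share was 37.4% for *Kifc5b* and at most 5.03%, in *Kif24*, for the other kinesins found there. How the fragments common to both genes were divided between them was not tested, and without *Kifc5b* 5 of the 6 mitotic kinesins below the 1.5-fold line are left.

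Kinesins that move chromosomes or limit the length of spindle microtubules had a median log2 ratio of -0.55 over 5 genes. *Kif18b*, which shortens astral microtubules, stood at 4.17 FPKM in si*Malat1* cells, against 6.91 FPKM in siNC cells (log2 ratio -0.71). *Kif4*, a chromosome-bound motor that shapes mitotic chromosomes and stops microtubule growth in the midzone, had 3.06 FPKM in si*Malat1* cells and 4.84 FPKM in siNC cells (log2 ratio -0.65). These were the members of the group lower by at least 1.5 times. *Kif2c*, the depolymerase that frees wrongly attached chromosomes at the centromere, had 5.86 FPKM in si*Malat1* cells, against 8.64 FPKM in siNC cells (log2 ratio -0.55). *Kif22*, which pushes chromosome arms away from the poles, had 7.52 FPKM in si*Malat1* cells, against 10.7 FPKM in siNC cells (log2 ratio -0.51). *Kif18a*, which dampens the movement of chromosomes at the metaphase plate, had 1.21 FPKM in si*Malat1* cells, against 1.58 FPKM in siNC cells. With a log2 ratio of -0.36, *Kif18a* was the mitotic kinesin of at least 1 FPKM nearest to equal levels. It also had the lowest mean of them, 1.40 FPKM, where the added 0.1 FPKM weighs most. *Kif2b*, a depolymerase related to *Kif2c*, is listed at 0 in both libraries, which in such a table can also be a failed estimate.

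Kinesins of the midzone and of cytokinesis had a median log2 ratio of -0.57 over 3 genes. *Kif23*, the motor of the centralspindlin complex that bundles midzone microtubules, stood at 5.35 FPKM in si*Malat1* cells, against 8.97 FPKM in siNC cells (log2 ratio -0.73). *Kif20b*, which acts in the last step of cytokinesis, had 2.23 FPKM in si*Malat1* cells and 3.35 FPKM in siNC cells (log2 ratio -0.57), and its plain ratio of 0.664 was likewise past 1.5 times. *Kif20a*, which brings Aurora B and its partners to the midzone, was the most abundant mitotic kinesin, with 14.7 FPKM in si*Malat1* cells and 20.9 FPKM in siNC cells (log2 ratio -0.50). In the table *Kif20a* shares its locus with *Brd8* (14.6 FPKM in si*Malat1* cells and 16.8 FPKM in siNC cells) and *Cdc23* (17.7 and 18.5 FPKM in the same order), so that fragments of the 3 genes are less certain to be assigned correctly. The log2 ratios of these neighbors, -0.20 and -0.06, were nearer to 0 than that of *Kif20a*. *Kif14*, which works with citron kinase at the midbody, was below the 1 FPKM minimum with a mean of 0.826 FPKM. It had 0.583 FPKM in si*Malat1* cells, against 1.07 FPKM in siNC cells, and its log2 ratio of -0.78 was lower than that of any mitotic kinesin inside the minimum.

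The order of abundance among mitotic kinesins was almost the same in both libraries. *Kif20a* ranked 1, *Kif22* ranked 2, and *Kif18b* to *Kif14* ranked 6 to 13 in each. Only *Kif2c*, *Kifc1* and *Kif23* changed places, *Kif2c* ranking 3 in si*Malat1* cells and 5 in siNC cells. Summed over all 14 genes, mitotic kinesins amounted to 58.6 FPKM in si*Malat1* cells and 89.8 FPKM in siNC cells, a log2 ratio of -0.61. Transport kinesins summed to 265.7 FPKM in si*Malat1* cells and 267.9 FPKM in siNC cells, a log2 ratio of -0.01. Mitotic kinesins thus made up 16.6% of all kinesin FPKM in si*Malat1* cells and 23.1% in siNC cells. In bulk RNA, fewer dividing cells and less kinesin RNA per dividing cell cannot be told apart.

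Among transport kinesins the most abundant member was *Kif5b*, the kinesin-1 heavy chain present in nearly all cells, with 70.4 FPKM in si*Malat1* cells and 67.7 FPKM in siNC cells. Its log2 ratio was 0.06, or 0.00 with the libraries scaled to the same sum. *Kif5c*, a kinesin-1 heavy chain best known from neurons, had 3.01 FPKM in si*Malat1* cells, against 3.999 FPKM in siNC cells. Its log2 ratio of -0.40 made it the 1 transport kinesin below the highest mitotic kinesin, *Kif18a*. The other 12 transport kinesins lay above every mitotic kinesin of at least 1 FPKM, and 11 of the 12 mitotic kinesins lay below every transport kinesin. *Kif5a*, the remaining heavy chain and also neuronal, had 0.0797 FPKM in si*Malat1* cells and 0.113 FPKM in siNC cells.

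Kinesin-2, which builds cilia and carries vesicles, was even across the libraries. *Kif3a* and *Kif3b*, the motor pair of the complex, had 14.7 and 18.2 FPKM in si*Malat1* cells, against 15.2 and 19.02 FPKM in siNC cells (log2 ratios -0.05 and -0.06). Their adaptor *Kifap3*, which the symbol rule leaves out since it is no motor, had 29.2 FPKM in si*Malat1* cells and 28.0 FPKM in siNC cells. *Kif3c*, which shares its locus with 1 other gene, had 10.4 FPKM in both, and the sign of its log2 ratio turned with the scaling between the libraries. With the libraries scaled to the same sum, the log2 ratios of *Kif3a* and *Kif3b* were -0.10 and -0.11.

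Kinesin-3 motors, which haul vesicles and organelles over long distances, had a median log2 ratio of -0.04 over 5 genes. *Kif1c*, which carries integrins and Golgi vesicles, followed *Kif5b* in abundance with 66.1 FPKM in si*Malat1* cells and 66.4 FPKM in siNC cells, and the sign of its ratio also turned with the scaling. *Kif1b*, a carrier of mitochondria and synaptic vesicle precursors, had 28.7 FPKM in si*Malat1* cells, against 26.5 FPKM in siNC cells. Its log2 ratio of 0.11 was the highest of any kinesin of at least 1 FPKM. The endosomal motors *Kif13a* (13.6 FPKM in si*Malat1* cells and 14.04 FPKM in siNC cells), *Kif13b* (5.86 and 6.50 FPKM in the same order) and *Kif16b* (5.86 and 6.01 FPKM) had log2 ratios between -0.15 and -0.04. *Kif21a* (3.50 FPKM in si*Malat1* cells and 3.85 FPKM in siNC cells) and *Kif21b* (1.57 and 1.68 FPKM), which restrain microtubule growth in interphase, and *Kifc3* (22.7 and 25.3 FPKM), a minus-end motor at cell junctions, had log2 ratios of -0.13, -0.09 and -0.15. These differences were small beside those of the mitotic kinesins, all between -0.15 and 0.11 on the log2 scale without further scaling.

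The 4 kinesins of other roles with at least 1 FPKM stood between the groups or with the transport kinesins. *Kif2a*, a depolymerase close to *Kif2c* that serves in interphase as well as in the spindle, had 18.95 FPKM in si*Malat1* cells, against 19.5 FPKM in siNC cells (log2 ratio -0.04). Counted as mitotic, it would be the 1 mitotic kinesin of at least 1 FPKM short of the milder threshold, and the median of the 13 would be -0.57. *Kif7*, a regulator of Hedgehog signaling at the tip of the cilium, had 2.96 FPKM in si*Malat1* cells and 3.63 FPKM in siNC cells, and *Kif24*, which keeps cilia from forming, had 2.34 FPKM in si*Malat1* cells and 2.87 FPKM in siNC cells. Both had a log2 ratio of -0.28, and *Kif7* shares its locus with 1 other gene. The window of *Kif24* held TTCGAA, a CHR variant found in 2.55% of genes of at least 1 FPKM, and no TTTGAA. *Kif26b*, which lacks motor activity and acts in Wnt signaling, had 4.02 FPKM in si*Malat1* cells, against 3.90 FPKM in siNC cells. The sign of its log2 ratio turned with the scaling. Its window held TTTGAA 9 bases before the start. How the motif relates to the levels was not tested.

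Below a mean of 1 FPKM were 13 kinesins, of which *Kif2b* and *Kif12* are listed at 0 in both libraries. The other 11 reached at most 0.826 FPKM in si*Malat1* cells and 1.07 FPKM in siNC cells, 7 of them lower and 4 higher in si*Malat1* cells. Those closest to the minimum were *Kifc2* (0.756 FPKM in si*Malat1* cells and 0.899 FPKM in siNC cells), *Kif14* and *Kif9* (0.826 and 0.635 FPKM). Just inside it were *Kif18a* and *Kif21b*, with means of 1.40 and 1.62 FPKM. *Kif1a*, a motor of axons, had 0.190 FPKM in si*Malat1* cells and 0.179 FPKM in siNC cells, and *Kif17*, a motor of dendrites and cilia, had 0.0507 FPKM in si*Malat1* cells and 0.0884 FPKM in siNC cells.

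**Figure D3:**
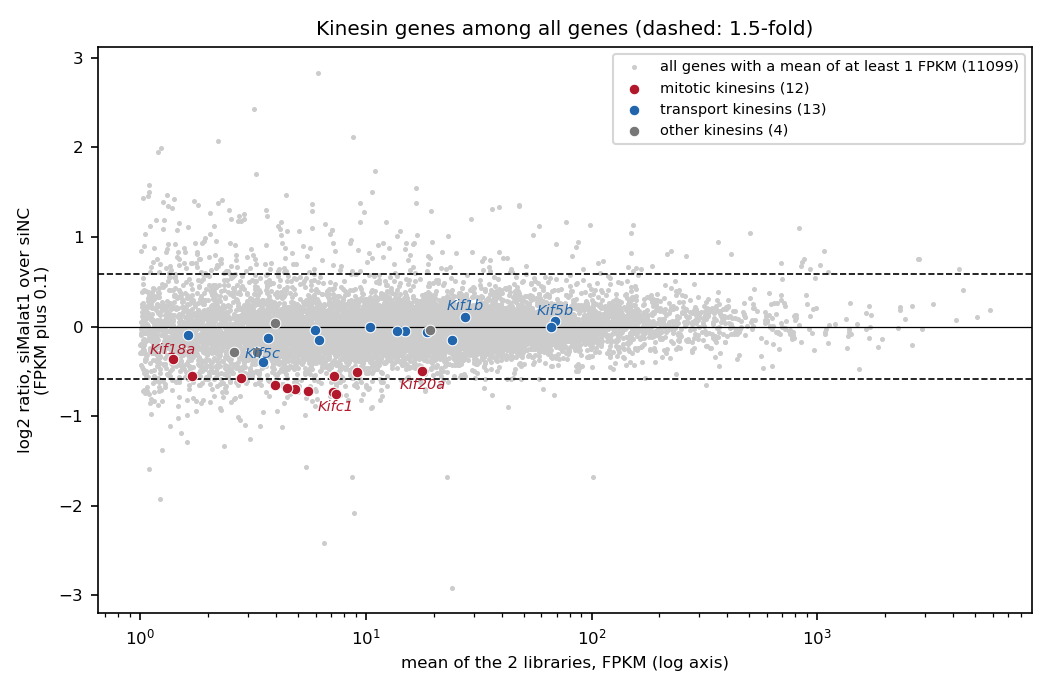
Log2 ratio of si*Malat1* over siNC (FPKM plus 0.1) against the mean FPKM of both libraries (log axis) for 11099 genes in grey and for 12 mitotic, 13 transport and 4 other kinesins in color, with dashed lines at a ratio of 1.5. Mitotic kinesins lie below most genes of like abundance, and transport kinesins lie within the bulk around 0.

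Genes for proteins that work with the mitotic kinesins had RNA ratios of like size. Partner lists, here and below, were written with earlier results of these data known. All 15 of a list of spindle and midzone partners were lower in si*Malat1* cells (57.4% of all genes were), with a median log2 ratio of -0.57. Of these, 7 were lower by at least 1.5 times (1.75% of all genes, and 2.49% of those between 1 and 25 FPKM). *Racgap1*, the partner of *Kif23* in centralspindlin, had 25.6 FPKM in si*Malat1* cells and 36.7 FPKM in siNC cells (log2 ratio -0.52). *Prc1*, the microtubule bundler that recruits *Kif4*, had 16.9 FPKM in si*Malat1* cells and 24.2 FPKM in siNC cells (log2 ratio -0.51). *Tpx2*, which binds *Kif11* on the spindle, had 7.80 FPKM in si*Malat1* cells and 12.3 FPKM in siNC cells (log2 ratio -0.65). *Cenpe*, a kinetochore kinesin that the symbol rule leaves out, had 3.26 FPKM in si*Malat1* cells and 5.70 FPKM in siNC cells (log2 ratio -0.78). The kinases *Aurkb* (log2 ratio -0.82) and *Plk1* (-0.67) were, with *Cenpe*, the lowest of the list, and the kinases *Aurka* (-0.49) and *Cit* (-0.50) and the spindle pole protein *Numa1* (-0.37) were nearest to 0. TTTGAA was in 7 of the 12 partner promoters with a window (13.9% of genes of at least 1 FPKM). In 5 of them it was within 30 bases of the start (2.45% of those genes).

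Partners of the transport kinesins were split much as all genes were. Of 17 cargo adaptors and regulators with at least 1 FPKM, 9 were lower and 8 higher in si*Malat1* cells (57.4% of all genes were lower), with a median log2 ratio of -0.06 and none past 1.5 times. The kinesin light chains *Klc1* (181 FPKM in si*Malat1* cells and 161 FPKM in siNC cells), *Klc2* (22.8 and 23.7 FPKM in the same order) and *Klc4* (12.6 and 13.3 FPKM) link kinesin-1 to its cargo, and their log2 ratios were 0.17, -0.06 and -0.08. *Klc3*, which like *Klc1* shares its locus with other genes, had the lowest ratio of the list at -0.41, followed by *Madd* (-0.31) and *Trak1* (-0.21), while *Arl8b*, a GTPase that couples lysosomes to kinesin-1, had the highest at 0.20, ahead of *Klc1* and *Rhot1* (0.12). Dynein and dynactin, which move cargo the opposite way, had a median log2 ratio of 0.00 over 20 genes, 10 lower and 10 higher. Here *Dync1i1* (log2 ratio -0.45), *Dctn1* (-0.26) and *Bicd2* (-0.16) were lowest, and *Dctn3* (0.24), *Dync1li1* (0.19) and *Dynll2* (0.14) highest. TTTGAA was in 2 of 17 windows of the transport partners and 1 of 17 of dynein and dynactin, none within 30 bases of the start. With 13.9% of genes of at least 1 FPKM having a match and 2.45% having one that near, such low counts are not particular to these lists.

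**Figure D4:**
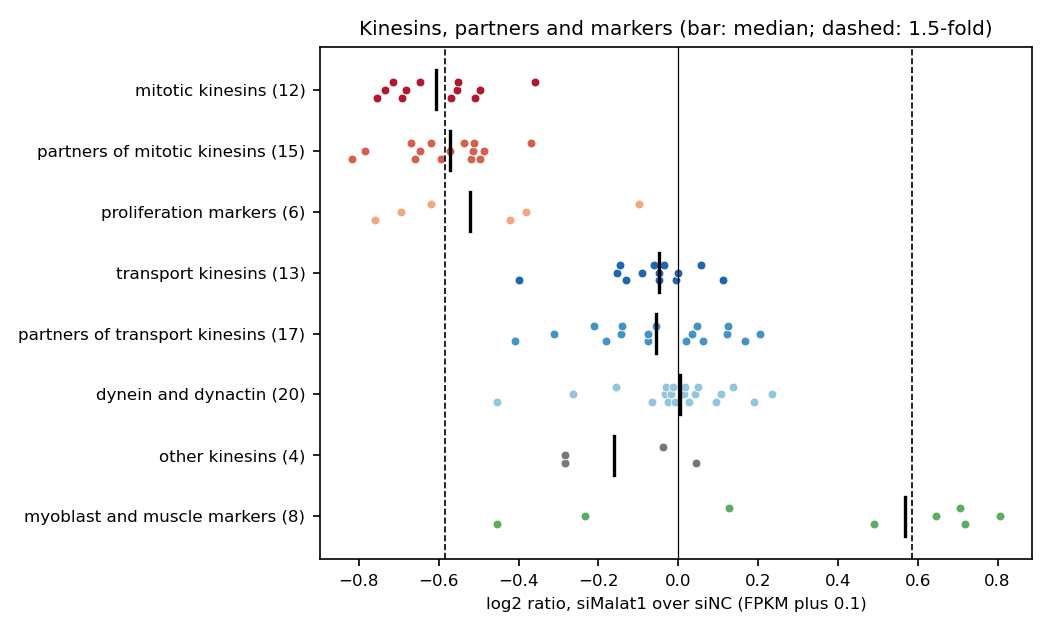
Log2 ratios of si*Malat1* over siNC (FPKM plus 0.1) for each gene of at least 1 FPKM in 8 lists, with the median as a bar and dashed lines at a ratio of 1.5. The mitotic kinesins (median -0.61) and their partners (-0.57) lie to the left of 0 throughout, and the transport kinesins (-0.05), their partners (-0.06) and dynein with dynactin (0.00) lie close to it, with 11 of 13 transport kinesins on its lower side.

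Markers of proliferation and of muscle also differed between the libraries, in opposite directions. All 6 proliferation markers were lower in si*Malat1* cells, where 57.4% of all genes were, with a median log2 ratio of -0.52. Among them *Mki67* had 5.67 FPKM in si*Malat1* cells and 9.67 FPKM in siNC cells (log2 ratio -0.76), while *Pcna* had 77.8 FPKM in si*Malat1* cells and 83.2 FPKM in siNC cells (log2 ratio -0.10). Of 8 myoblast and muscle markers 6 were higher, as were 4723 of all 11099 genes, with a median log2 ratio of 0.57, among them *Myog* with 857 FPKM in si*Malat1* cells and 525 FPKM in siNC cells. *Myod1* (95.8 FPKM in si*Malat1* cells and 113 FPKM in siNC cells) and *Myf5* (17.3 and 23.8 FPKM in the same order), which mark the lineage, were present in both libraries and lower in si*Malat1* cells. Of other cell types, the adipocyte markers *Adipoq*, *Plin1* and *Cidec* are listed at 0 in both libraries. Summed levels were 0.529 FPKM in si*Malat1* cells and 0.184 FPKM in siNC cells for 5 adipocyte markers and 0.821 FPKM in si*Malat1* cells and 1.22 FPKM in siNC cells for 5 leukocyte markers. For bone and cartilage the sum over 5 markers was 5.80 FPKM in si*Malat1* cells and 4.80 FPKM in siNC cells, nearly all of it *Bglap*. For neurons it was 58.2 FPKM in si*Malat1* cells and 71.4 FPKM in siNC cells over 3 markers, nearly all of it the tubulin *Tubb3*, with *Snap25* and *Syt1* at most at 0.0303 FPKM. The part of these markers in the kinesin differences was not tested.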

How the data were processed

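By the study's methods and the submitters' processing notes, paired reads of 50 bases from 1 polyadenylated RNA library per oligo were mapped to mm9 with TopHat2 2.0.9, and Cufflinks 2.1.1 and Cuffdiff 2.1.1 gave the deposited FPKM. The annotation and the strand of the libraries are not given in the sources used here. The authors' own log ratios and calls, also in the table, were not used. FPKM hold no counts. Among the 1937 lowest genes (mean up to 0.1 FPKM), 366 had ratios on steps of whole fragments, within 0.004 on the natural log scale, with 1 fragment worth 1.09 times as much in si*Malat1*, against a median of 31 for other step sizes. No counting interval is given, since the depth behind each value is unknown. FPKM summed to 502715 in si*Malat1* and 484715 in siNC, and 1900 genes were listed at 0 in 1 library.

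The log2 of FPKM plus 0.1 was compared for genes above 0 in both libraries with a mean of at least 1 FPKM, and a fold of 1.5 and a log2 ratio of 0.32 served as thresholds across all genes. Members, roles and partner lists were written from textbook knowledge with earlier results of these data known. Named were all kinesins of at least 1 FPKM, the 3 below it that came closest, and the extremes and direct kinesin partners of each list. *Kif5a*, *Kif1a*, *Kif17*, *Kif4b* and the marker genes printed were named outside this rule after their values were seen. Locus starts were raised by 1, since 6044 of 16386 single-gene loci then matched the RefSeq gene length, against 414 as given. Promoters are from RefSeq (GRCm38.p6) and transcripts from GENCODE M21, and no coordinates were carried between builds. Transcripts were aligned with Biopython 1.88. Python 3.11.15, pandas 2.3.3, numpy 2.4.6 and matplotlib 3.10.9 were used, and the ratio and count functions were checked on a simulated table. Alternatives covered the pseudocount, minimum, fold, scaling, shared loci and list membership.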

Additional observations from a re-analysis of the deposited data

How the results depend on the processing

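No paired analysis was possible because each oligo has 1 library. Over 11 alternatives, 9 summary values and the ratios of 29 kinesins were recomputed. A value was taken as moved if it changed by more than 0.1 on the log2 scale and by more than 1.5 times, or, for a count, by more than 1.5 times. The median of the mitotic kinesins stayed between -0.66 and -0.51, that of the transport kinesins between -0.10 and -0.01, and their difference between -0.60 and -0.46, and no ratio past 1.5 times changed sign. The number of mitotic kinesins lower by the fold, 6 of 12, was 3 with a pseudocount of 1 FPKM, 7 with one of 0.01 FPKM, 3 of the 6 left with a minimum of 5 FPKM, 12 at a log2 threshold of 0.32, 9 with libraries scaled to the same sum and 0 at a fold of 2. At a log2 threshold of 0.32, 1 transport kinesin passed. The number of mitotic kinesins on the lower side was 6 of 6 with a minimum of 5 FPKM. The median of the other kinesins, -0.16 over 4 genes, rests on few genes. It was -0.039, each time the value of *Kif2a*, with no minimum (9 genes), with a minimum of 5 FPKM (1 gene) and without members that share a locus (3 genes). With *Kif2a* counted as mitotic it was -0.28 (3 genes). Of single kinesins, *Kif15* (-0.37) and *Kif18a* (-0.22) moved, with a pseudocount of 1 FPKM. Scaling to the same sum moved every log2 ratio by about -0.05 and scaling to a median of 0 by about 0.04. With 1 library per oligo, the spread between cultures is unknown, and no value here can be said to exceed it.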
